A study of Homo sapiens with 54 samples.

Results

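10 imprinted genes were followed across the human pluripotent stem cell lines and culture conditions of an array study of a fibroblast growth factor (FGF) chimera. They are DLK1, MEG3, H19, IGF2, PEG3, PEG10, MEST, SNRPN, NNAT and PLAGL1. The genes were chosen by name, and a probe was taken for a gene when the RefSeq accession printed with it on the array belonged to that gene. This gave 10 genes on 14 probes, of 19720 genes that could be named this way and 42405 probes in all. DLK1, MEG3, IGF2 and PEG3 had 2 probes each. Differences between lines, after long culture, after FGF removal and after differentiation were the reason for choosing these genes, and DLK1 and PEG3 had been seen to differ, so those values are given as a description with no test. The comparison of FGFC with bFGF was not used to choose them and was tested.

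An imprinted gene is transcribed mainly from the copy inherited from one parent. A control region carries DNA methylation, set in the egg or sperm, on a single parental copy. Imprinted genes lie in clusters, and paternally expressed growth-promoting genes such as IGF2 and DLK1 sit beside maternally expressed non-coding RNAs such as H19 and MEG3. Pluripotent stem cell lines are known to gain or lose imprints during derivation and culture. The arrays measured total RNA of each gene and do not show which parental copy it came from.

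The study compared FGFC, a chimeric protein built from fragments of FGF1 and FGF2, with bFGF (FGF2) as the growth factor that keeps human embryonic stem cells (ESCs) and induced pluripotent stem cells (iPSCs) undifferentiated. H1 (WA01) ESCs were grown in E8 Medium, made from Essential 6 Medium with TGF-beta 1 and 100 ng/mL of bFGF. They were sampled as pre-cultures and after 4 days with bFGF, FGFC or no FGF, in 3 experiments, which gives 12 cultures. By the sample titles, the pre-cultures of experiments 1 to 3 were at passages 48, 49 and 50. The 4-day cultures were at passages 49, 59 and 51, so in experiment 2 the passages lay further apart than in the others. There were 5 long-term systems, which each had 1 pre-culture, 1 culture with bFGF and 1 with FGFC. These were H1 ESCs in E8 Medium for 30 days at 100 ng/mL, H1 ESCs in MEF-conditioned medium for 41 days at 5 ng/mL, KhES-1 ESCs on feeder cells for 30 days at 5 ng/mL, 201B7 iPSCs on feeder cells for 50 days at 10 ng/mL and 253G1 iPSCs in E8 Medium for 36 days at 100 ng/mL. The labels call both iPSC lines HDF-derived, and feeder cells and conditioned medium came from mouse embryonic fibroblasts (MEF). The H1 pre-culture of experiment 1 also served as the pre-culture of the 30-day cultures. A single H1 culture had been differentiated through embryoid bodies. In all there were 27 cultures, each on 2 arrays whose mean was used. For KhES-1 and 201B7, line, medium and FGF dose cannot be told apart, while 253G1 shared E8 Medium and the FGF dose with H1. Passage also differed between systems, from pre-culture to long-term culture. It was 48 and 58 in H1 in E8 Medium, 53 and 63 in MEF-conditioned medium, 30 and 40 in KhES-1 and 201B7, and 43 and 52 in 253G1. No slide held arrays of more than 1 system, so slide and system cannot be told apart.

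Levels are given as log2 of the processed signal minus the log2 signal at the 75th percentile of the same array, so that 0 is a probe at the 75th percentile and 1 unit is 2-fold. Probes hybridise differently, so levels are compared between cultures for one probe and not between probes. Of the probes on an array, 56.2% to 79.2% were well above background, the scanner software's mark for a measured signal. The 201B7 pre-culture had the array with the lowest 75th percentile signal, 182, against a highest value of 913. The 2 arrays of a culture differed by a median of 0.05 to 0.39 over the member probes. All 7 measured pluripotency markers were well above background on every array of each undifferentiated system. As the samples are bulk RNA, fewer cells expressing a gene and less RNA per cell cannot be told apart.

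**Figure D1:**
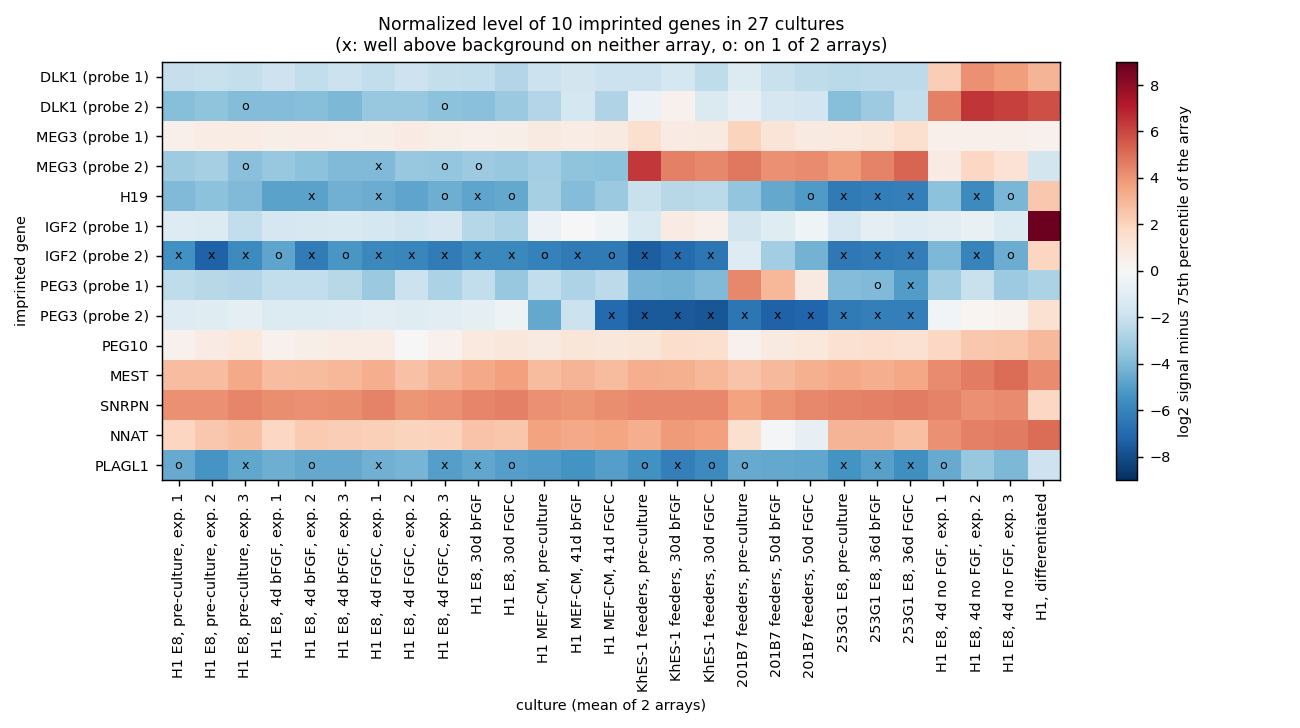
Levels of the 14 member probes (vertical axis) in the 27 cultures (horizontal axis, mean of 2 arrays), as log2 signal minus the array's 75th percentile, coloured from blue (low) to red (high). Crosses and circles mark levels that were well above background on neither array or on 1 of 2 arrays. MEST and SNRPN were high in every culture, while the second probe of MEG3 was between 3.84 and 6.37 in the 9 KhES-1, 201B7 and 253G1 cultures and between -3.95 and -3.02 in the 14 H1 cultures with FGF.

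Promoter windows of 250 bases upstream of a start site were found in RefSeq (GRCh38.p14) for 5 of the 10 genes, MEG3, H19, MEST, SNRPN and PLAGL1. They were searched on both strands for TGCCGC, the hexamer that the imprint-protecting zinc finger protein ZFP57 binds when it is methylated. MEG3 differed most between lines, though on only 1 of its 2 probes, and MEST and SNRPN differed little. Their windows are shown with the hexamer, or its other-strand form GCGGCA, in capitals. They lie at chr14:100825858-100826107, chr7:130486097-130486346 and chr15:24954737-24954986, all on the plus strand.
MEG3: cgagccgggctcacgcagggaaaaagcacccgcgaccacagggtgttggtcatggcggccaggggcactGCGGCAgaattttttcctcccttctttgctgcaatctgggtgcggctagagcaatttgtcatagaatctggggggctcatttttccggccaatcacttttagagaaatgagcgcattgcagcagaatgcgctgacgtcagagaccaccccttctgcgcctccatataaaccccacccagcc
MEST: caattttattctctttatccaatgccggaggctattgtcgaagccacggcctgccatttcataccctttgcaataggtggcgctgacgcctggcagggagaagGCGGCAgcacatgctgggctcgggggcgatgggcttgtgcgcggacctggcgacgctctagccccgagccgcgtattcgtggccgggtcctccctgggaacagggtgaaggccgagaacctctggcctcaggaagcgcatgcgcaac
SNRPN: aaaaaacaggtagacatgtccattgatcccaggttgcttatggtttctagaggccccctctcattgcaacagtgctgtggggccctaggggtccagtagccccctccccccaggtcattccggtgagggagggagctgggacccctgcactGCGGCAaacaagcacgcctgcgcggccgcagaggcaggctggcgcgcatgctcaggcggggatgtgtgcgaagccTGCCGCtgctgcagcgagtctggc
Where a gene had several windows, the one with the most hexamers was taken. The MEG3 and MEST windows held 1 hexamer each and the SNRPN window held 2. The PLAGL1 window also held 2 and the H19 window none. Over all 35116 RefSeq windows of the same length, 12.7% held the hexamer. Of the 1472 genes with 3 to 5 windows, as MEG3, MEST, SNRPN and PLAGL1 have, 35.4% held it in at least 1, so the choice of window raises such counts. Over all windows the median number of CG pairs was 11, against 13 in MEG3, 20 in MEST, 12 in SNRPN, 32 in PLAGL1 and 4 in H19. A match is a run of letters and was not tested as a binding site.

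Across the lines and media, the widest difference among the 10 genes was in MEG3, the maternally expressed long non-coding RNA of the DLK1-DIO3 cluster on chromosome 14. Its second probe, A_33_P3255434, was at 6.37, 4.53 and 4.33 in the KhES-1 pre-culture, bFGF and FGFC cultures. In the same order it was at 4.78, 4.09 and 4.26 in 201B7 and at 3.84, 4.43 and 5.24 in 253G1. The 11 H1 cultures in E8 Medium with bFGF or FGFC lay between -3.95 and -3.02 (median -3.41). The H1 cultures in MEF-conditioned medium were at -3.07, -3.60 and -3.72. The H1 and other-line cultures were thus wholly apart, at a mean of 4.65 ± 0.76 (SD, n = 9) against -3.49 ± 0.29 (SD, n = 14), a difference of 8.14 or 283-fold. In the same medium at the same dose, 253G1 averaged 4.5 and H1 in E8 Medium -3.5, and H1 in MEF-conditioned medium averaged -3.46. The probe was well above background on 18 of 18 arrays of the other lines and on 23 of 28 arrays of H1. Of 22013 probes well above background on all 18 arrays of the other lines, it ranked 3 by how much higher those lines were. That filter used only the lines in which the probe was high, and line differences were used to choose the genes. The rank is therefore a description. Of all probes, 0.486% were in this way above every H1 culture by 2-fold or more and 1.11% below.

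The first probe of MEG3, A_32_P40547, carries another transcript accession of the gene and showed a far smaller difference. It was at 1.15 ± 0.41 (SD, n = 9) in the other lines, from 0.76 to 2.02, and at 0.61 ± 0.13 (SD, n = 14) in H1, from 0.45 to 0.83, so the ranges overlapped. The difference of 0.54 was 1.45-fold. The 201B7 pre-culture had the highest level, 2.02, and the KhES-1 pre-culture 1.42. The probes of MEG3 therefore gave different accounts of the same cultures, both on transcripts named MEG3.

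DLK1, the paternally expressed Notch-related membrane protein beside MEG3 in this cluster, differed between lines on its second probe and little on its first. On its first probe, A_33_P3217559, the 11 H1 cultures in E8 Medium lay between -2.61 and -1.84 (mean -2.12 ± 0.21, SD, n = 11), and the mean of each other system was within 0.30 of theirs. On its second probe, A_24_P236251, the same 11 cultures lay between -4.03 and -3.34 (mean -3.71 ± 0.22, SD, n = 11). That probe was at -0.53, 0.42 and -1.30 in the KhES-1 pre-culture, bFGF and FGFC cultures and at -0.74, -1.51 and -1.69 in those of 201B7. KhES-1 was higher by 3.24 (9.46-fold), 201B7 by 2.40 (5.27-fold) and H1 in MEF-conditioned medium by 1.40 (2.63-fold), with no overlap with the 11 cultures. In 253G1, at -3.81, -3.24 and -2.21, the ranges overlapped.

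**Figure D2:**
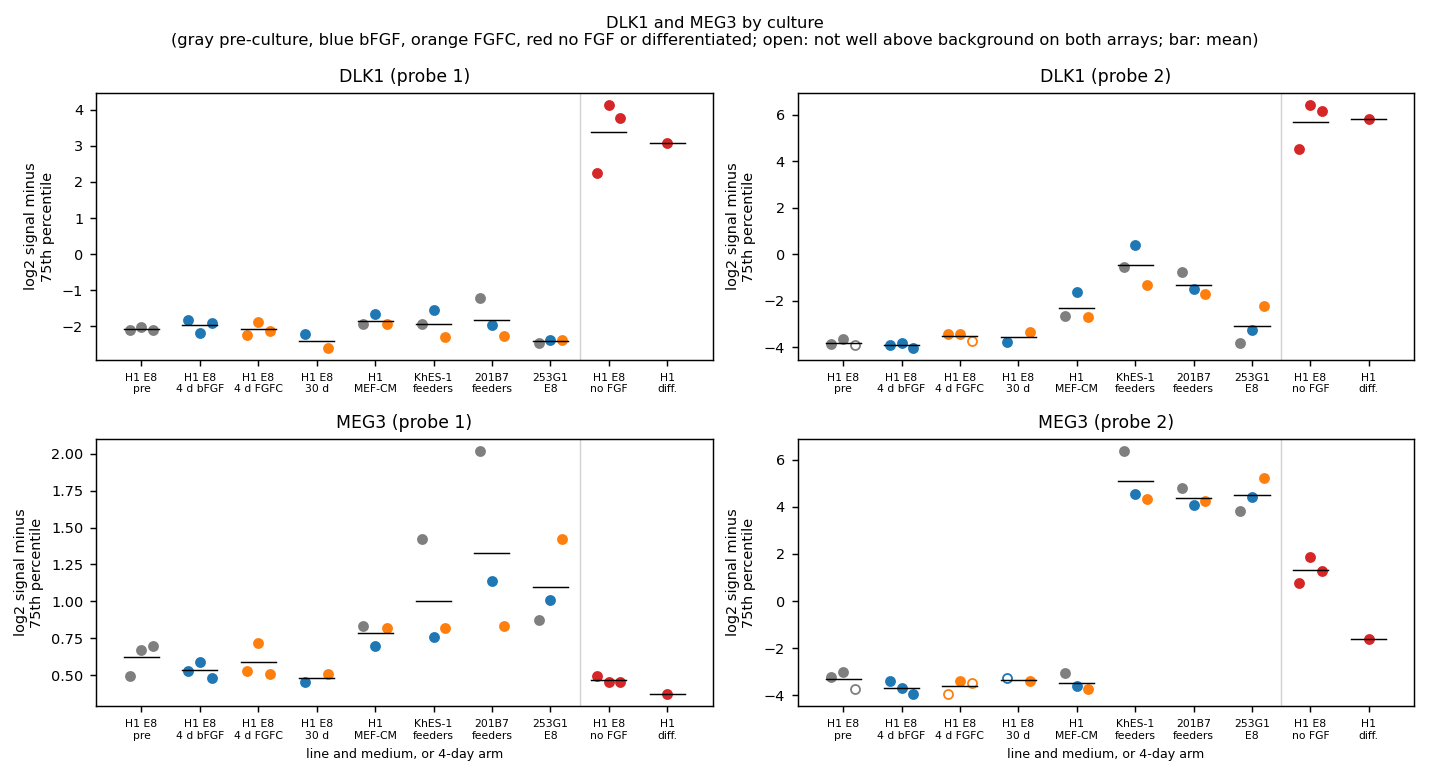
Levels of both probes of DLK1 and of MEG3 (vertical axes, log2 signal minus the array's 75th percentile) in each culture, grouped on the horizontal axis by line and medium or 4-day arm. Grey points are pre-cultures, blue bFGF, orange FGFC and red no FGF or differentiated; open points were not well above background on both arrays and bars are means. On the second probe of MEG3, KhES-1, 201B7 and 253G1 sit above 3.84 and H1 cultures with FGF below -3.02, while DLK1 is high without FGF and in differentiated H1.

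The 11p15 pair of IGF2, a fetal growth factor expressed from the paternal copy, and H19, a maternally expressed non-coding RNA, differed less between lines. H19 was at -1.97, -2.52 and -2.41 in the KhES-1 pre-culture, bFGF and FGFC cultures, and between -4.85 and -3.69 (median -4.44) in the 11 H1 cultures in E8 Medium, where 14 of 22 arrays were well above background. All 3 KhES-1 cultures were above all 11, by 2.12 on average or 4.34-fold. In 253G1 H19 was well above background on 0 of 6 arrays, and its readings averaged 3.51-fold below H1. Both sides lay near background, so this ratio sets no lower limit. H1 in MEF-conditioned medium, at -2.99, -3.91 and -3.34, overlapped the 11 cultures, as did 201B7 with -3.53, -4.64 and -5.13.

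IGF2 on its first probe, A_23_P150609, was at -0.56, 0.06 and -0.37 in the MEF-conditioned pre-culture, bFGF and FGFC cultures. The 11 H1 cultures in E8 Medium lay between -2.82 and -1.16 (mean -1.74 ± 0.56, SD, n = 11), all of them lower, and the difference was 1.45 or 2.74-fold. The second probe, A_23_P421379, was well above background on 2 of 22 arrays of these 11 cultures, where it lay between -7.29 and -4.76. On that probe 201B7 stood apart, at -1.19, -3.10 and -4.27, which is 2.99 above the H1 mean. On the first probe 201B7, at -1.66, -1.06 and -0.36, overlapped the H1 cultures.

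PEG3, a paternally expressed zinc finger protein gene on chromosome 19, gave opposite directions on its probes in 201B7, although both carry the same transcript accession, and was lower on both in KhES-1 and 253G1. On the first, A_33_P3424057, the 201B7 pre-culture, bFGF and FGFC cultures were at 4.29, 3.01 and 0.80, and the 11 H1 cultures in E8 Medium between -3.39 and -1.95 (mean -2.55 ± 0.47, SD, n = 11). All 3 201B7 cultures were higher, by 5.25 or 38.1-fold. KhES-1, at -4.18, -4.27 and -3.99, and 253G1, at -3.87, -3.94 and -5.01, were below all 11, with differences of -1.59 (3.02-fold lower) and -1.72 (3.30-fold lower), and 253G1 was well above background on 3 of 6 arrays.

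On the second PEG3 probe, A_23_P407583, the 11 H1 cultures in E8 Medium lay between -1.26 and -0.48 (mean -1.0 ± 0.22, SD, n = 11). The probe was well above background on 0 of 6 arrays in each of KhES-1, 201B7 and 253G1. KhES-1 and 201B7 were at least 52.9-fold and 32.3-fold lower, and 253G1 was 36.9-fold lower by its readings. H1 in MEF-conditioned medium was at -4.63 in the pre-culture, -1.90 with bFGF and -7.02 with FGFC, the last well above background on neither array. These 3 cultures of one line were all below the 11 cultures in E8 Medium and lay further from each other than any cultures of the 11 did. ZIM2 and MIMT1, imprinted neighbours of PEG3, were lower in H1 in MEF-conditioned medium and in the other lines, and MIMT1 was chosen after its values were seen. ZIM2 lay between -3.26 and -1.72 in the 11 cultures, between -5.52 and -3.67 in H1 in MEF-conditioned medium and between -6.93 and -4.34 in the other lines. It was well above background on 1 of 6 arrays in KhES-1 and on 2 of 6 in each of 201B7 and 253G1.

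NNAT, which encodes the small membrane proteolipid neuronatin, was at 1.95 to 2.72 in the 3 H1 pre-cultures in E8 Medium and at 1.88 to 2.72 (mean 2.26 ± 0.28, SD, n = 11) in all 11 cultures. H1 in MEF-conditioned medium, at 3.59, 3.40 and 3.52, and KhES-1, at 3.26, 3.85 and 3.70, were above all 11, by 1.24 (2.36-fold) and 1.34 (2.53-fold). 201B7 was below all 11, at 1.45, -0.08 and -0.74, a difference of -2.05 or 4.14-fold. PLAGL1, a zinc finger gene that slows cell growth, was well above background on 11 of 22 arrays of the 11 H1 cultures, 6 of 6 in MEF-conditioned medium, 5 of 6 in 201B7, 2 of 6 in KhES-1 and 0 of 6 in 253G1. Its difference in KhES-1 was -1.14, or 2.20-fold lower.

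**Figure D3:**
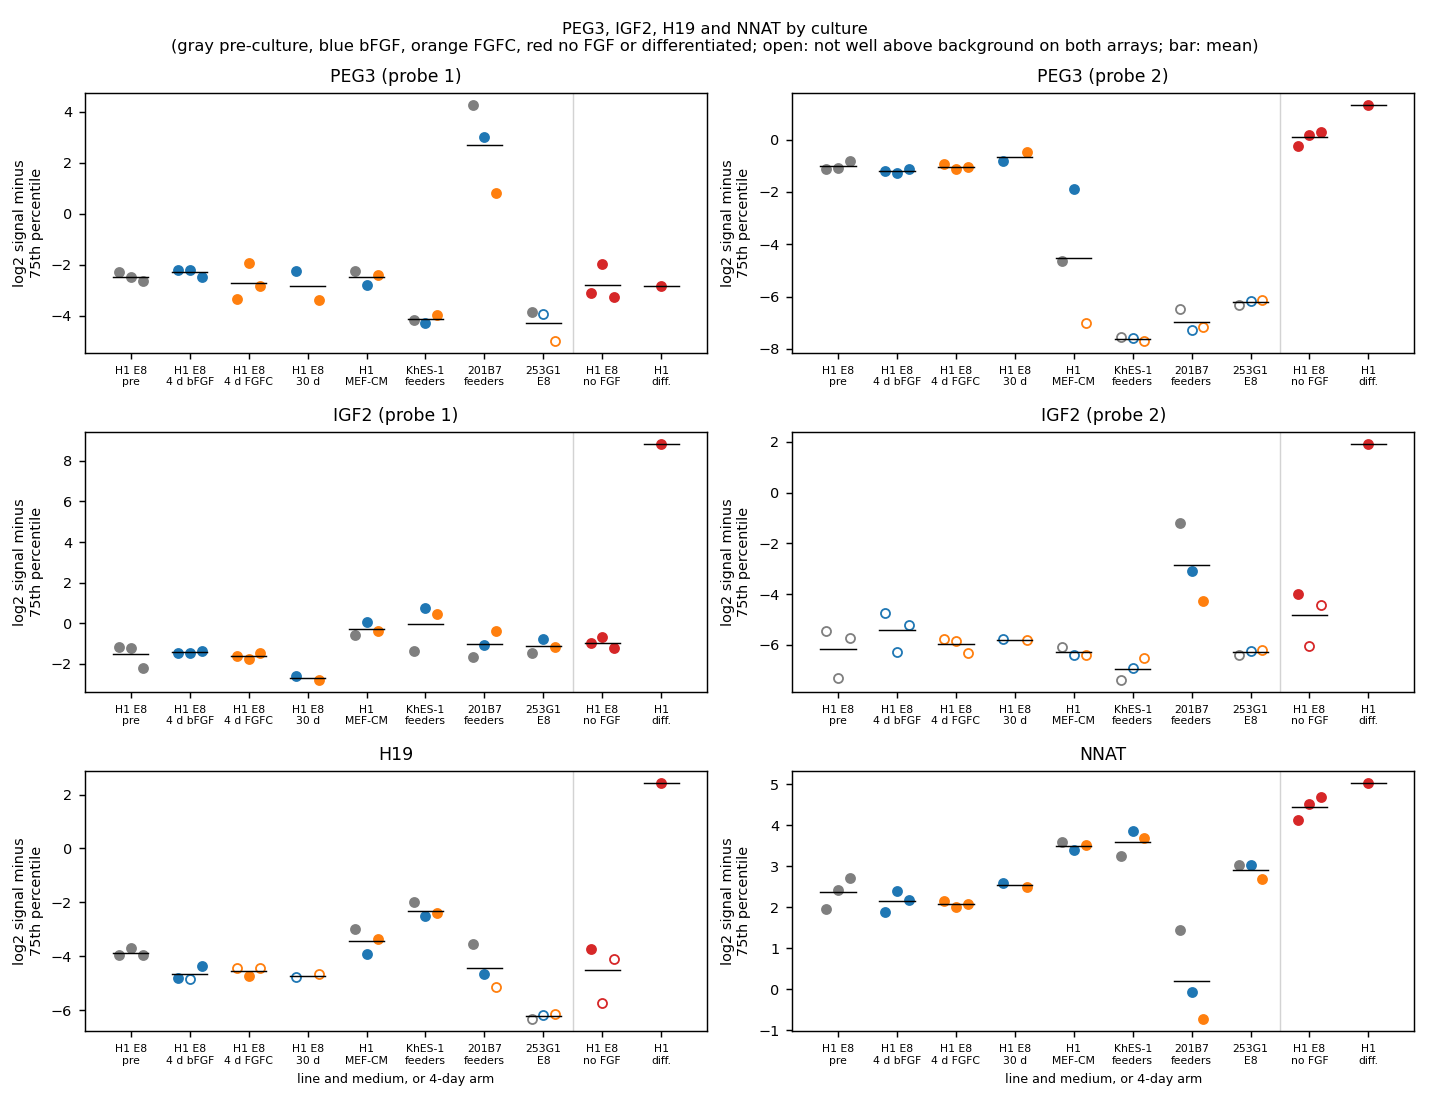
Levels of PEG3 and IGF2 (both probes), H19 and NNAT (vertical axes, log2 signal minus the array's 75th percentile) in each culture, grouped on the horizontal axis by line and medium or 4-day arm. Grey points are pre-cultures, blue bFGF, orange FGFC and red no FGF or differentiated; open points were not well above background on both arrays and bars are means. 201B7 is the highest on the first PEG3 probe, between 0.80 and 4.29, and well above background on no array on the second.

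MEST, a paternally expressed gene for a hydrolase-like protein, and SNRPN, which encodes a splicing protein from the paternal copy of the Prader-Willi region, varied least. The mean of each other system was within -0.16 and 0.33 of the H1 mean for MEST and within -0.24 and 0.31 for SNRPN. PEG10, derived from a retrotransposon, was 0.76 higher in KhES-1 and 0.83 higher in 253G1, under 2-fold. Levels of these genes in the 11 H1 cultures were 2.64 to 3.69 for MEST, 3.99 to 4.5 for SNRPN and 0.04 to 1.04 for PEG10.

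On the first probe of each gene, 2 of 10 members were above all 11 H1 cultures by 2-fold or more in MEF-conditioned medium (IGF2, NNAT) and 0 below. KhES-1 had 2 above (H19, NNAT) and 2 below (PEG3, PLAGL1), 201B7 had 1 above (PEG3) and 1 below (NNAT), and 253G1 had 0 above and 2 below (H19, PEG3). Of all probes, 3.03% were above and 12.3% below in MEF-conditioned medium, 4.03% and 22.1% in KhES-1, 4.2% and 5.74% in 201B7 and 2.03% and 7.05% in 253G1. As these contrasts were used to choose the genes, nothing is read from the comparison of counts. The median difference from H1 in E8 Medium over all probes was -0.15, -0.54, -0.19 and 0.01 in the same order of systems, and that over the members was 0.24, 0.31, 0.06 and 0.32.

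Markers of other cells also differed between the systems. The summed linear signal of 9 fibroblast markers, relative to the 75th percentile, was 255, 142 and 75.1 in the 201B7 pre-culture, bFGF and FGFC cultures, 39.0 to 43.6 in KhES-1 and 43.1 to 65.9 in the 11 H1 cultures. Of the 9, 6 in KhES-1 and 5 in 201B7 were well above background on every array. COL3A1, COL6A3 and LUM were so on no array of either system on feeder cells. COL3A1 and LUM were also so on no array of H1 in MEF-conditioned medium or of 253G1. In H1 in MEF-conditioned medium, 7 neural markers summed to 31.7 to 42.7 against 7.11 to 15.1 in the 11 cultures, 7 endoderm markers to 8.56 to 17.9 against 0.698 to 2.14 and 5 muscle markers to 11.4 to 15.1 against 1.51 to 2.54. The part of such cells in the levels of the imprinted genes was not tested.

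Removal of FGF for 4 days went with higher levels of DLK1, NNAT, MEST and PEG10 in all 3 experiments. On the first probe of DLK1 the cultures without FGF were at 2.24, 4.14 and 3.79 in experiments 1 to 3, those with bFGF at -1.84, -2.20 and -1.91 and those with FGFC at -2.25, -1.88 and -2.14. Every culture without FGF was above every culture with an FGF, and the difference from bFGF was 5.37 on average or 41.5-fold. On the second probe the levels were 4.54, 6.42 and 6.15 without FGF and -3.90, -3.80 and -4.03 with bFGF, a difference of 9.61 or 782-fold. Experiment 1 had the lowest DLK1 level of the 3 without FGF on both probes.

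NNAT was at 4.12, 4.52 and 4.69 without FGF and at 1.88, 2.39 and 2.18 with bFGF, 2.29 or 4.88-fold higher. MEST was at 4.28, 4.61 and 5.03 without FGF and at 2.75, 2.88 and 3.01 with bFGF, 1.76 or 3.40-fold higher. PEG10 was at 1.83, 2.40 and 2.50 without FGF and at 0.39, 0.52 and 0.69 with bFGF, 1.71 or 3.26-fold higher. None of these 3 genes had overlapping arms, and for all 3 the lowest level without FGF was that of experiment 1.

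MEG3 and PEG3 again differed between their probes. The first probe of MEG3 was at 0.49, 0.45 and 0.45 without FGF against 0.53, 0.59 and 0.48 with bFGF. Its second probe was at 0.76, 1.87 and 1.29 without FGF against -3.41, -3.67 and -3.95 with bFGF, 4.98 or 31.7-fold higher with no overlap. These levels without FGF were still below those of every KhES-1, 201B7 and 253G1 culture. The first probe of PEG3 was at -3.13, -1.97 and -3.28 without FGF and at -2.20, -2.20 and -2.50 with bFGF, which overlapped. Its second probe was at -0.23, 0.19 and 0.30 without FGF against -1.21, -1.26 and -1.14 with bFGF, 1.29 or 2.45-fold higher with no overlap.

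IGF2 was slightly higher without FGF on its first probe, at -1.0, -0.68 and -1.24 against -1.48, -1.47 and -1.36, a difference of 0.46 or 1.38-fold. H19 overlapped between the arms, at -3.72, -5.73 and -4.08 without FGF, where 3 of 6 arrays were well above background, and at -4.80, -4.85 and -4.34 with bFGF. SNRPN was at 4.49, 4.12 and 4.26 without FGF and at 4.16, 4.13 and 4.21 with bFGF, a difference of 0.12. PLAGL1 was 0.53 higher on average, with a difference of -0.18 in experiment 1.

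**Figure D4:**
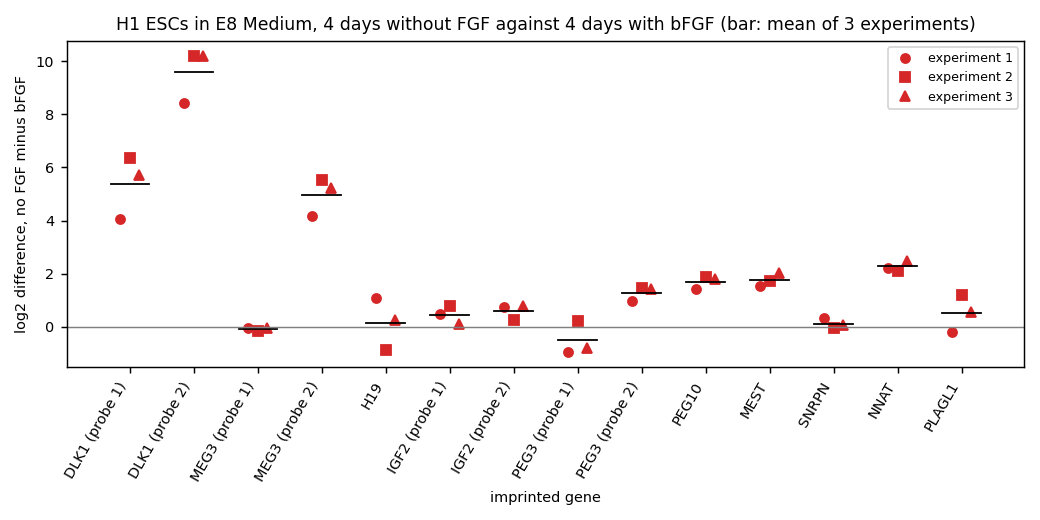
Difference in level between H1 ESCs without FGF and with bFGF for 4 days (vertical axis, log2) for each member probe (horizontal axis), with 1 symbol per experiment and bars at the mean of 3 experiments. DLK1 lies highest, with means of 5.37 and 9.61 on its probes, and SNRPN and the first probe of MEG3 lie at 0.12 and -0.07.

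On the first probe of each gene, 5 of 10 members (DLK1, IGF2, PEG10, MEST and NNAT) were above bFGF in all cultures without FGF and 0 were below, beside 24.2% and 18.1% of all probes. By 2-fold or more it was 4 of 10 above, beside 4.23% of all probes above and 6.12% below. The same 5 were all above FGFC, beside 11.7% of all probes. This contrast was used in choosing the genes, and these counts are a description. The median difference was 0.49 over the members and 0.01 over all probes.

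Markers moved in the same cultures. The 7 pluripotency markers summed to 211 to 300 without FGF and 320 to 395 with bFGF, and all 7 remained well above background on every array. In every culture without FGF, 3 of the 7 were below bFGF and 2 above, so the sum does not stand for each marker. The 7 neural markers summed to 25.8 to 30.6 without FGF and 8.14 to 10.2 with bFGF, with 5 of 7 above bFGF in every culture and 1 below. SOX1, NEUROD1 and ELAVL3 were well above background on no array. The 7 trophoblast and amnion markers summed to 6.30 to 9.01 against 6.00 to 7.76, with 4 of 7 above and 0 below. The 9 fibroblast markers summed to 18.9 to 25.6 against 47.9 to 55.7, with 3 of 9 below and 1 above. The part of these markers' cells in the levels of the imprinted genes was not tested.

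Long-term culture was compared with the pre-culture of the same system, 1 culture against 1, so there was no replicate check and no test. Of 100 comparisons, the 10 genes in 5 systems with bFGF and with FGFC, 15 differed by 2-fold or more, 3 higher and 12 lower. Without 201B7 the number was 6. IGF2 and PEG3 made up 9 of the 15.

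IGF2 was higher after long culture in KhES-1 and lower in H1 in E8 Medium. On its first probe it was at -1.39 in the KhES-1 pre-culture, 0.75 after 30 days with bFGF and 0.45 after 30 days with FGFC, higher by 2.14 (4.41-fold) and 1.84 (3.58-fold). In H1 in E8 Medium it was at -1.16 in the pre-culture, -2.60 after 30 days with bFGF and -2.82 with FGFC, differences of -1.44 (2.71-fold lower) and -1.66 (3.16-fold lower). The other pre-cultures in E8 Medium were at -1.20 and -2.21, so the 30-day levels were below all 3. In H1 in MEF-conditioned medium the differences were 0.62 with bFGF and 0.19 with FGFC, so the H1 systems did not move alike, and in 253G1 they were 0.71 and 0.32. The difference between the systems was not tested.

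In 201B7, PEG3, NNAT and H19 were at least 2-fold lower after 50 days with either factor. PEG3 on its first probe differed from the pre-culture by -1.28 (2.43-fold lower) with bFGF and -3.49 (11.2-fold lower) with FGFC. NNAT differed by -1.53 (2.89-fold lower) and -2.19 (4.56-fold lower), and H19 by -1.11 (2.16-fold lower) and -1.60 (3.03-fold lower). With FGFC, DLK1 differed by -1.06 and MEG3 by -1.19 on their first probes, and IGF2 by 1.30 (2.46-fold higher). For PEG3, NNAT and H19, the level with FGFC was the lowest of the 3 cultures. The second probe of IGF2 differed by -1.91 (3.76-fold lower) and -3.08 (8.46-fold lower), opposite to the first probe. The fibroblast marker sums given above, 255 in the pre-culture, 142 with bFGF and 75.1 with FGFC, had the same order, and the pre-culture's arrays were among those with the lowest signal. Neither was tested as a part of these differences.

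The probes that separated the lines also moved within them. The second probe of MEG3 differed by -1.84 (3.58-fold lower) with bFGF and -2.04 (4.11-fold lower) with FGFC in KhES-1, and was 1.39 (2.62-fold) higher with FGFC in 253G1. The second probe of PEG3 in H1 in MEF-conditioned medium was 2.72 (6.59-fold) higher with bFGF and at least 4.98-fold lower with FGFC than in the pre-culture, and at least 32.9-fold lower with FGFC than with bFGF. The FGFC arrays of that system were on another slide than its other arrays. The first probe of PEG3 differed by -1.10 with FGFC in H1 in E8 Medium and was 2.20-fold lower with FGFC in 253G1, by readings near background. MEST, SNRPN, PEG10 and PLAGL1 differed by 2-fold in no system.

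**Figure D5:**
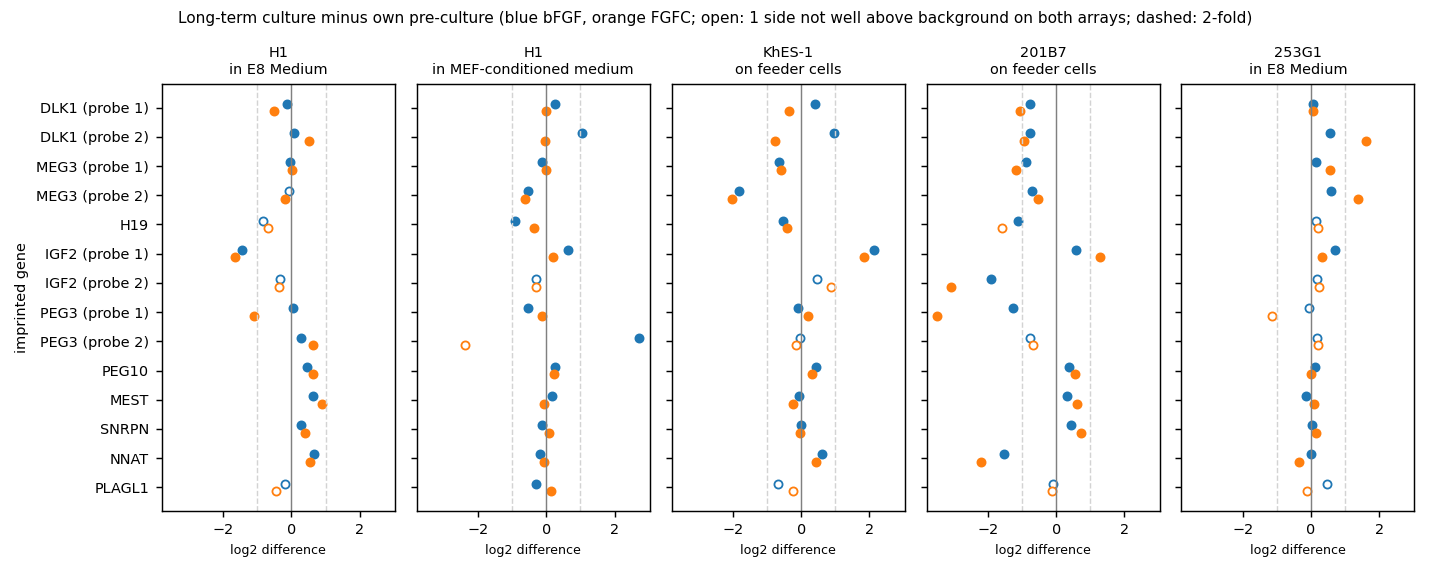
Difference in level between long-term cultures and the pre-culture of the same system (horizontal axes, log2) for each member probe (vertical axis), with 1 panel per system. Blue points are bFGF and orange FGFC, open points had a side not well above background on both arrays, and dashed lines mark 2-fold. IGF2 (first probe) lies at 2.14 and 1.84 in KhES-1 and at -1.44 and -1.66 in H1 in E8 Medium, and the first probe of PEG3 reaches -3.49 in 201B7.

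Of all probes, the share at least 2-fold higher and lower with bFGF was 2.99% and 8.08% in H1 in E8 Medium, 2.57% and 1.98% in MEF-conditioned medium, 1.97% and 2.71% in KhES-1, 2.51% and 8.48% in 201B7 and 4.39% and 2.18% in 253G1. With FGFC it was, in the same order, 3.7% and 13%, 0.849% and 2.34%, 1.83% and 1.93%, 5% and 18.5%, and 2.81% and 3.05%. The member counts were 1 lower with bFGF and 2 lower with FGFC in H1 in E8 Medium, 1 higher each in KhES-1, 3 lower with bFGF in 201B7, 1 higher and 5 lower with FGFC in 201B7, and 1 lower with FGFC in 253G1. They are a description, since long culture was part of the choice of genes.

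FGFC was then set against bFGF, the comparison that the choice of genes did not use. After 4 days limma called none of the 10 members at the adjusted threshold of 0.05, and none had an unadjusted p under 0.05. The same was true of all 42405 probes for the adjusted p (0 probes, 0%), while 1262 probes (2.98%) had an unadjusted p under 0.05. Differences between the arms were -0.42 to 0.13 over the members, with standard errors of 0.14 to 0.41. The first probe of DLK1 was at -2.09 ± 0.19 (SD, n = 3) with FGFC and -1.98 ± 0.19 with bFGF, a difference of -0.11 (SE 0.38, limma adjusted p = 1.0). The second probe was higher with FGFC in all 3 experiments, by 0.38 (SE 0.39, limma adjusted p = 1.0). These standard errors pool all 4 arms of the fit. On the second DLK1 probe the SD was 1.02 without FGF, against 0.16 with FGFC and 0.12 with bFGF. SNRPN differed by 0.01 (SE 0.17) and MEG3 by 0.05 (SE 0.14) and 0.08 (SE 0.30) on its probes.

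In the 5 long-term systems, with the system as a block, the members again gave 0 calls and 0 unadjusted p-values under 0.05, beside 0 of 42405 probes called (0%) and 1067 (2.52%) with an unadjusted p under 0.05. On the first probes, differences were -0.75 to 0.15, with standard errors of 0.12 to 0.42. PEG3 had the widest on both probes, -0.95 (SE 0.64, limma adjusted p = 0.979) on its second and -0.75 (SE 0.42, limma adjusted p = 0.979) on its first, where it was lower with FGFC in 3 of 5 systems. Of these, 201B7 had -2.21 (4.63-fold), H1 in E8 Medium -1.14 and 253G1 -1.07, which are the 3 of 50 first-probe values of 2-fold or more. On second probes it was 5 of 20, DLK1 at -1.09 in MEF-conditioned medium, -1.72 in KhES-1 and 1.03 in 253G1, IGF2 at -1.17 in 201B7 and PEG3 at -5.12 in MEF-conditioned medium. Without 201B7 the estimate was -0.38. Probes at least 2-fold higher and lower with FGFC were 1.14% and 5.02% in 201B7, 1.65% and 5.17% in H1 in E8 Medium, 2.15% and 4.83% in 253G1, 1.42% and 2.96% in H1 in MEF-conditioned medium and 1.86% and 1.29% in KhES-1.

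DLK1 on its first probe was lower with FGFC in 5 of 5 systems, though in 253G1 both arms were at -2.39 when rounded. It averaged -2.31 ± 0.24 (SD, n = 5) against -1.96 ± 0.36, a difference of -0.34 (SE 0.18, limma adjusted p = 0.979). This was the lowest unadjusted p of a member probe, 0.0789 by limma. On its second probe DLK1 was higher with FGFC in 2 of 5 systems, with a difference of -0.31 (SE 0.38, limma adjusted p = 0.979). MEST was at 3.25 ± 0.35 with FGFC and 3.17 ± 0.19 with bFGF (SD, n = 5), and SNRPN at 4.39 ± 0.19 and 4.24 ± 0.23. A p that misses the threshold does not show that both factors act alike. In simulated data of this size limma found 16% of planted 2-fold and 84% of planted 4-fold changes at 4 days, and 51% and 98% in the long-term systems.

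The differentiated H1 culture, a positive control grown as embryoid bodies, was compared with the 11 H1 cultures in E8 Medium as a single culture with no test. IGF2 was at 8.85 on its first probe, above a highest value of -1.16 in the 11 cultures, by 10.60 from their mean or 1550-fold. On the second probe it was at 1.93, where the 11 cultures lay at -4.76 or below and were well above background on 2 of 22 arrays. H19 was at 2.44 against a highest value of -3.69, by 6.85 or 116-fold. Both genes of the 11p15 pair were thus far above any undifferentiated culture.

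DLK1 was at 3.08 and 5.81 on its probes, 36.6-fold and 733-fold above the mean of the 11 and within the range of its levels without FGF. PLAGL1, at -1.85, was 2.80 (6.97-fold) higher, NNAT, at 5.04, 2.77 (6.84-fold), PEG10, at 2.91, 2.29 (4.90-fold) and MEST, at 4.28, 1.21 (2.32-fold). SNRPN was the 1 member below all 11, at 1.84 against a lowest value of 3.99, a difference of -2.39 or 5.25-fold. MEG3 differed by -0.19 on its first probe and was 1.87 (3.64-fold) higher on its second. PEG3 differed by -0.30 on its first and was 2.34 (5.07-fold) higher on its second.

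On the first probes 7 of 10 members were above all 11 cultures by 2-fold or more and 1 below, beside 12.7% and 14.9% of all probes. This contrast was also part of the choice. The 7 pluripotency markers summed to 27.6 in this culture against 286 to 506 in the 11, with PRDM14 well above background on no array. The 7 endoderm markers summed to 55.8 against 0.698 to 2.14, the 7 trophoblast and amnion markers to 76.0 against 5.56 to 8.37, the 7 neural markers to 28.9 against 7.11 to 15.1, the 9 fibroblast markers to 213 against 43.1 to 65.9 and the 5 muscle markers to 18 against 1.51 to 2.54. Their part in the imprinted gene levels was not tested.

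Other imprinted genes, 41 of 48 listed ones that had a probe, were tested by limma between the cultures without FGF and with bFGF. The list was drawn up with earlier results of these data known, so its calls and share are a description. Of the 41 genes, 8 rose and 4 fell at an adjusted p of 0.05 (29.3%). Of all probes, 5.54% rose and 7.19% fell, 12.7% in all. The list counts the brightest probe of each gene, while all probes include dim ones. When only the 30071 probes well above background in at least 3 cultures were tested, 21.6% passed, and 13 genes of the list. Leaving out experiment 1, 2 or 3 left 8, 2 or 3 calls in the list, and 8.39%, 4.58% or 3% of all probes. The median difference was 0.22 over the list and 0.01 over all probes. DLX5, a homeobox gene of the PEG10 and SGCE region at 7q21, rose most, by 9.70 (SE 0.34, limma adjusted p = 1.2e-07, higher in 3 of 3 experiments), and as it was well above background on 0 of 6 arrays with bFGF this is at least 387-fold. SGCE, which encodes a sarcoglycan and lies beside PEG10, rose by 0.87 (SE 0.19, limma adjusted p = 0.0105).

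DIO3, the thyroid hormone deiodinase at the far end of the DLK1 cluster, rose by 3.42 (SE 0.82, limma adjusted p = 0.0183) and by 2.18 on its second probe (limma adjusted p = 0.0228). The adjusted p was over 0.05 without experiment 2 or without experiment 3. HYMAI, the non-coding RNA of the PLAGL1 locus, rose by 1.46 (limma adjusted p = 0.0228), NAP1L5 by 1.39 (limma adjusted p = 0.00878) and GNAS, a G protein subunit, by 0.92 (limma adjusted p = 0.0151). Those that fell were TFPI2, a protease inhibitor, by 2.69 (limma adjusted p = 0.000221), NLRP2 at least 2.22-fold, being well above background on 0 of 6 arrays without FGF (limma adjusted p = 0.00533), and KCNQ1OT1 and the potassium channel gene KCNQ1, the first by 1.42 (limma adjusted p = 0.0234) and the second by 0.87 (limma adjusted p = 0.0146). DLX5 and TFPI2 were called without each experiment in turn, and NLRP2 was not called when signals were floored or corrected by normexp.

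Among 13 measured genes that set, protect or remove imprints (imprint factors), 2 passed the test (15.4%), beside 12.7% of all probes. This list too was drawn up with earlier results known. With only probes well above background tested, 3 factors passed, beside 21.6% of those probes. DPPA3, a maternal factor that guards methylation in the early embryo, rose by 2.75 (SE 0.40, limma adjusted p = 0.000951), at least 4.84-fold as it was well above background on 0 of 6 arrays with bFGF. UHRF1, which brings the maintenance methyltransferase to replicating DNA, rose by 1.25 (SE 0.27, limma adjusted p = 0.0118) and by 1.15 on its second probe. Without experiment 3 neither passed, and without experiment 2 only DPPA3 did. DNMT3A, a de novo methyltransferase, fell by 1.67 on its probe 3 (limma adjusted p = 0.0033), while its other probes did not pass, at 0.43 and 0.13. Between FGFC and bFGF, no gene of either list passed limma at 4 days or long-term. At an unadjusted p under 0.05 on first probes there were 0 of both lists at 4 days, and 3 other imprinted genes and 0 imprint factors long-term. Of the other probes, 2 of 4 of TET2, a demethylating enzyme, had such a p at 4 days, with differences of -0.90 and -0.56 (limma adjusted p = 1.0). Between long-term bFGF cultures and pre-cultures, limma gave 0 calls for both lists and for all probes, with 1 other imprinted gene and 0 imprint factors on first probes, TET1 on its second probe (0.40) and 2445 of all probes (5.77%) at an unadjusted p under 0.05.

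The genes whose levels were most like those of DLK1 and PEG3 over the 27 cultures were found by Pearson's r among 16028 genes. These are descriptions, since cultures share lines and experiments. For the first probe of DLK1 they were RAX, an eye field homeobox gene (r = 0.96), HAPLN1, a matrix link protein (r = 0.96), and DLX5 (r = 0.96). For its second probe they were FRZB and RSPO3, secreted regulators of Wnt signalling, and the receptor gene LPAR1 (each r = 0.96). RAX averaged 3.15 without FGF, -0.48 in differentiated H1 and -4.80 in the 11 H1 cultures with FGF.

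For the first probe of PEG3 the most alike were LGALS9 (r = 0.98), which encodes a galectin, HDAC10 (r = 0.98), a deacetylase, and NXF3 (r = 0.96), and for the second CDH4, a cadherin (r = 0.96), GYG2, a glycogenin (r = 0.95), and the neighbouring imprinted gene ZIM2 (r = 0.95). HDAC10 averaged 2.74 in 201B7, -1.61 in the 11 H1 cultures and -3.57 in KhES-1. GYG2 averaged -0.70 in the 11 H1 cultures, -1.54 in H1 in MEF-conditioned medium and -2.83, -2.47 and -2.34 in KhES-1, 201B7 and 253G1. None of the 3 genes nearest to one PEG3 probe was among the 3 nearest to the other.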

How the data were processed

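Each of 27 cultures of human pluripotent stem cells was measured on 2 one-colour Agilent arrays, and groups were taken from the deposited sample labels. For 5 arrays of experiment 3 the passage labels differ, and the title was used. The processed signal intensity of each spot, background-subtracted, linear and not scaled between arrays, was deposited by the authors from Feature Extraction 10.7.3.1, as were median and background signal intensities. The deposited series table equals the processed signal (3400704 of 3400704 values, relative tolerance 1e-06). The deposited marks for outlier spots and for a measured signal were set by the authors' scanner software.

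Of 62976 spots per array, 4259 controls and 266 to 623 outlier spots were left out. Log2 of the signal (at least 1) was averaged over the spots of each of 42405 probes, the 75th percentile was subtracted and the 2 arrays of a culture were averaged. RefSeq accessions (GRCh38.p14 tables) named 25715 probes. A gene was represented by its probe with the highest mean level over 54 arrays, and other probes are given where they disagree. Of the other lists, genes that passed were named, up to 6 in each direction, and the 3 genes most like DLK1 and PEG3. The members and lists were chosen with earlier results of these data known.

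Tests used limma 3.58.1 in R 4.3.3 across all probes, with Benjamini-Hochberg adjustment: 12 H1 cultures with 4 arms for the 4-day comparisons, and 15 cultures with the system as a block for long-term culture. The study calls its 4-day experiments independent, and the long-term systems had 1 culture per arm. At 4 days p-values measure the spread between experiments, pooled over the 4 arms. Long-term they measure how the differences between arms vary from system to system, as the block takes out each system's own level. Alternatives were quantile normalization, normexp (offset 50, on median signals as the files hold no mean signals), floors, filters, single arrays, blocks and left-out experiments or systems. The fits were tested on simulated data. The number of arrays limits the precision.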

Additional observations from a re-analysis of the deposited data

Results flagged for a closer look

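For the 14 member probes, 3 long-term comparisons (FGFC with bFGF, and each with the pre-culture) give 42 sets of 5 systems. In 3 sets, all of FGFC with bFGF, a system was far from the other 4, and chance gives about 1 in 20 sets. IGF2 on its first probe was 0.71 higher with FGFC in 201B7, against -0.43 to -0.22 in the other systems. On its second probe the difference in 201B7 was -1.17, against -0.03 to 0.41 in the others. PEG3 on its second probe differed by -5.12 in H1 in MEF-conditioned medium, where FGFC was well above background on neither array, against -0.11 to 0.35 in the others.

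IGF2 on its first probe was higher after long culture in KhES-1, by 2.14 with bFGF and 1.84 with FGFC, and lower in H1 in E8 Medium, by -1.44 and -1.66. Both long-term cultures of the one system moved one way and both of the other the opposite way, while H1 in MEF-conditioned medium differed by 0.62 and 0.19. The difference between the systems was not tested.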

How the results depend on the processing

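Of 111 counts under other settings, 101 were within 1.5 times the reported count. The 12 other imprinted genes called without FGF became 2 to 8 when an experiment was left out. The 2 imprint factors called became 4 with normexp and 4 with only the arms compared, and 0 to 2 when an experiment was left out. The 10 of 40 member comparisons past 2-fold between lines and media became 5 with normexp and 17 with the probe of the second highest mean signal. They became 11 without the 201B7 pre-culture, a setting chosen after seeing the data. The 15 long-culture differences became 8 with normexp and 6 to 15 when a system was left out, 6 without 201B7. Among 863 single-gene values of the tests and of the differences without FGF, between systems and after differentiation, 3 whose groups did not overlap reversed, all with the second probe, MEG3 in differentiated H1 (1.87, from -0.19), IGF2 in MEF-conditioned medium (-0.44, from 1.45) and PEG3 in 201B7 (-5.97, from 5.25). Single-gene calls were lost in 25 values, and no member value of FGFC against bFGF passed the threshold under any setting. Fits with an experiment or a system left out also had fewer cultures. The causes were not tested.

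Cultures of the same experiment number deviated together with r of -0.16 to 0.52 (median 0.19, 18 pairs), and those of other numbers with -0.52 to 0.51, so the numbers were not taken as a pairing. With the replicate block, 11 other imprinted genes (MAGEL2 lost) and 2 imprint factors were called, and 0 members for FGFC. Blocks could not be applied to member values without a test. Levels near background, above all of H19, PLAGL1 and the second IGF2 probe, are limited by signal.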

Other observations

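RTL1, a retrotransposon-derived imprinted gene between DLK1 and DIO3, was well above background on 1 of 18 arrays of KhES-1, 201B7 and 253G1 and on 0 of 28 arrays of H1 with FGF. Of 120 RefSeq genes of this interval, 2 had a named probe, MEG3 and RTL1, so the other transcripts of the cluster are not described here. MIMT1, a non-coding RNA gene beside PEG3, was well above background on 21 of 22 arrays of the 11 H1 cultures in E8 Medium, at -4.20 to -2.91, and on 2 of 6 in MEF-conditioned medium. It was well above background on 0 of 6 arrays in each of KhES-1, 201B7 and 253G1. Differentiated H1 had MIMT1 at -0.66 and ZIM2 at -0.75. MIMT1 was chosen after its values were seen.

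Over the 27 cultures DLK1 on its first probe correlated with MEST (r = 0.83), PEG10 (r = 0.78), PLAGL1 (r = 0.66) and NNAT (r = 0.60), and at r = -0.01 with the first probe of PEG3. The cultures share lines and experiments, and these values are descriptions.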
